A study of Drosophila melanogaster with 19 samples.

Results

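The 33 aminoacyl-tRNA synthetase genes of the fruit fly Drosophila melanogaster were followed in single embryos of the syncytial and cellularising blastoderm. They were the 33 of the 17735 genes in the deposited table whose name is a three-letter amino acid code, or GluPro, followed by RS. Of these, 18 genes have no ending and are called cytosolic here, and 15 carry the ending -m and are called mitochondrial. The classes rest on the names alone, and a gene without the ending may serve mitochondria too. For 12 amino acids the table holds a gene under the same name with and without the ending, among them IleRS and IleRS-m. GluProRS, beside GluRS-m and ProRS-m, is not counted in these pairs. The cytosolic phenylalanine enzyme, whose subunits alpha-PheRS and beta-PheRS are named otherwise, falls outside these names and is described at the end with the partner genes.

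Poly(A) RNA was sequenced from single whole embryos. All embryos came from flies with a fluorescent histone, H2AvD-RFP, in which nuclear cycles can be watched. The study describes no injection of the control embryos. They were collected in cycle 12 (control C12) or 13 (control C13), or early (control C14E) or late (control C14L) in cycle 14. Arrested embryos were injected with double-stranded RNA against the mitotic cyclin genes CycA, CycB and CycB3, stopped in cycle 12, and were collected 15, 30, 50 and 70 minutes after mitosis 11 (C12-15min, C12-30min, C12-50min and C12-70min). Of 19 labelled embryos, the authors dropped 1 of control C12, which leaves 3 embryos behind each of control C13 and C14E and 2 behind each remaining condition. Arrest comes with injection, and no injection of the controls is described. The arrested embryos had fewer nuclei than those of cycles 13 and 14. From 30 minutes on, they were also older than control C12 embryos. Against control C12, arrest cannot be told apart from injection and age. Against the later controls, it cannot be told apart from injection, age and fewer nuclei.

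Aminoacyl-tRNA synthetases join each amino acid to its tRNAs, the step on which decoding of the message depends. The cytosolic enzymes serve the ribosomes of the cytoplasm, while the mitochondrial enzymes are encoded in the nucleus, imported, and serve the translation of the few proteins encoded by mitochondrial DNA. The early embryo starts with synthetase mRNA laid down by the mother, much maternal mRNA is cleared around cycle 14, and the zygotic genome takes over transcription in the same period. Levels below are in CPM, the usual depth-scaled read count and thus a share of all reads assigned to genes, so in these whole embryos fewer cells of a type and less RNA per cell cannot be told apart. Differences are on the log2(CPM+1) scale of the deposited table, where 1 unit is a doubling for an abundant gene and low genes are compressed.

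The deposited column of a condition is the authors' mean over its embryos. For the 6 conditions with 2 embryos, the whole reads of each embryo were solved for from the decimals of that mean, which gave 187 of 198 synthetase values, and all 12 embryos for 27 of the 33 genes. In each condition embryo 1 is the one with more assigned reads and embryo 2 the one with fewer. Assigned reads ran from 41693085 to 57998963 in the 4 control embryos and from 39242409 to 52804462 in the 8 arrested embryos. Values of control C13 and control C14E are means with no error. The 3 cyclin mRNAs stood at 68.5% to 82.5% of control C12 in C12-15min, near the 75.7% to 82.4% of control C13. They stood at 0.512% to 2.45% in the 3 later arrested conditions. Follicle cell and fat body genes, a sign of maternal tissue, summed to 0.198 to 4.04 CPM over 9 genes in every condition, while the 6 maternal germline genes were all detected in each.

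The embryos of C12-15min lay far apart, and this bears on each comparison that follows. Between them, 22 of 30 synthetase genes were over 1.5-fold higher in embryo 1 and 0 in embryo 2, with a median log2 difference of 1.38. Among all genes of at least 10 CPM, 48.1% differed by over 1.5-fold between the same embryos, and the median size of the difference was 0.556. Against the control C12 mean, the median log2 difference of the 30 synthetase genes was 0.53 in embryo 1 and -0.73 in embryo 2. No value over all genes stands beside these medians, so they are not read as particular to the synthetases. The zygotic blastoderm genes went the other way: 8 of them (eve, ftz, Kr, kni, sna, zen, run and nullo) summed to 76.2 CPM in embryo 1 and to 577 CPM in embryo 2, beside 251 and 88.7 CPM in the embryos of control C12. Their part in the synthetase levels was not tested. The control C12 embryos also differed, with 12 of 31 synthetase genes over 1.5-fold higher in embryo 2 and 0 in embryo 1. Among all genes of at least 10 CPM in control C12, 21.9% differed by over 1.5-fold, in either direction.

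**Figure D1:**
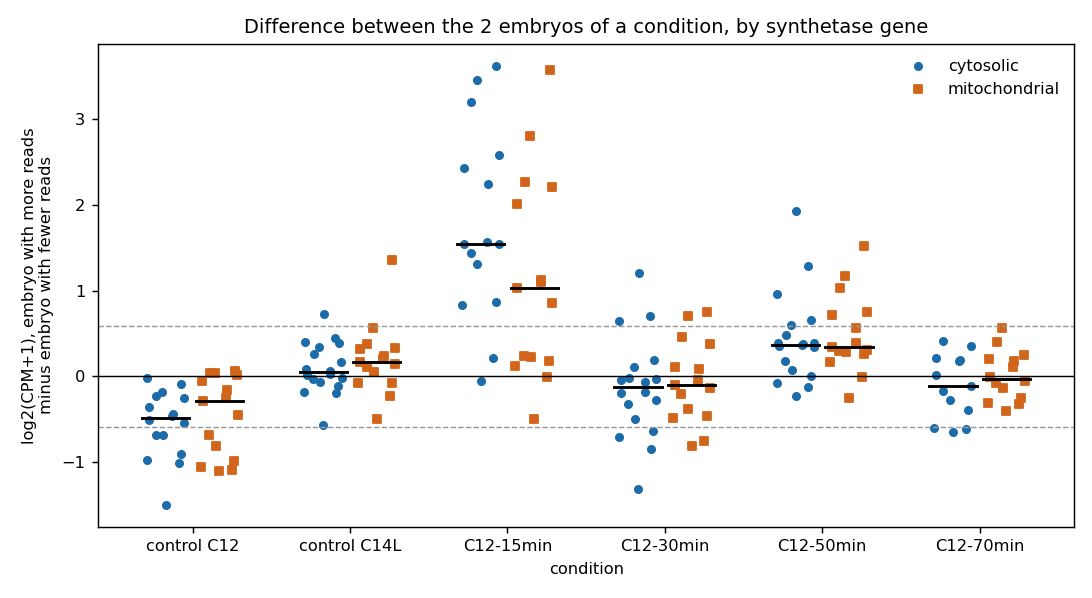
Difference between the 2 embryos of a condition for each synthetase gene (y axis, log2(CPM+1) of the embryo with more reads minus the embryo with fewer; dashed lines, 1.5-fold; black bars, medians). The points of C12-15min lie mostly above 0, with a median of 1.55 for cytosolic and 1.03 for mitochondrial genes, and those of control C12 mostly below, with medians of -0.49 and -0.29.

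In control C12 the synthetase mRNAs spanned a wide range once divided by exon length. LysRS led with 192 CPM per kb, followed by ThrRS with 134, TyrRS with 97.9, IleRS with 91.2 and AspRS-m with 75.6 CPM per kb. The median was 32.2 CPM per kb for the cytosolic genes and 5.86 for the mitochondrial genes, and IleRS-m was lowest with 0.309 CPM per kb. A few genes made up most of each class. LysRS, ThrRS and IleRS held 51.4% of the summed CPM of the 18 cytosolic genes in control C12, and AspRS-m alone held 56.8% of that of the 15 mitochondrial genes. In humans, 1 gene each gives both the cytosolic and the mitochondrial form of LysRS and GlyRS, and the table holds no -m gene for either.

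Controls moved away from cycle 12 in both classes, most genes downward and a few upward. In control C13, 14 of 33 genes were over 1.5-fold below control C12 and 0 above, where 11% of all 17735 genes lay below and 4.14% above. Among the 8419 genes that reached 1 CPM in any condition, 23.1% lay below and 8.69% above. In control C14E, 18 were below and 2 above (AlaRS and IleRS-m), against 16.6% and 11.7% of all genes and 34.9% and 23.7% of the 8419. In control C14L, 17 were below and 6 above, against 16% and 19.5% of all genes and 33.6% and 37.3% of the 8419. All 33 synthetase genes had at least 1 CPM in some condition, so the 8419 genes are the nearer background. The genes of at least 10 CPM throughout had a median log2 difference of -0.29 between control C14L and control C12, and with that shift taken off, 13 synthetase genes were below and 9 above, beside 28% and 45% of the 8419 genes centred alike. The median over cytosolic genes was -0.88 and over mitochondrial genes -0.52 in the same comparison.

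**Figure D2:**
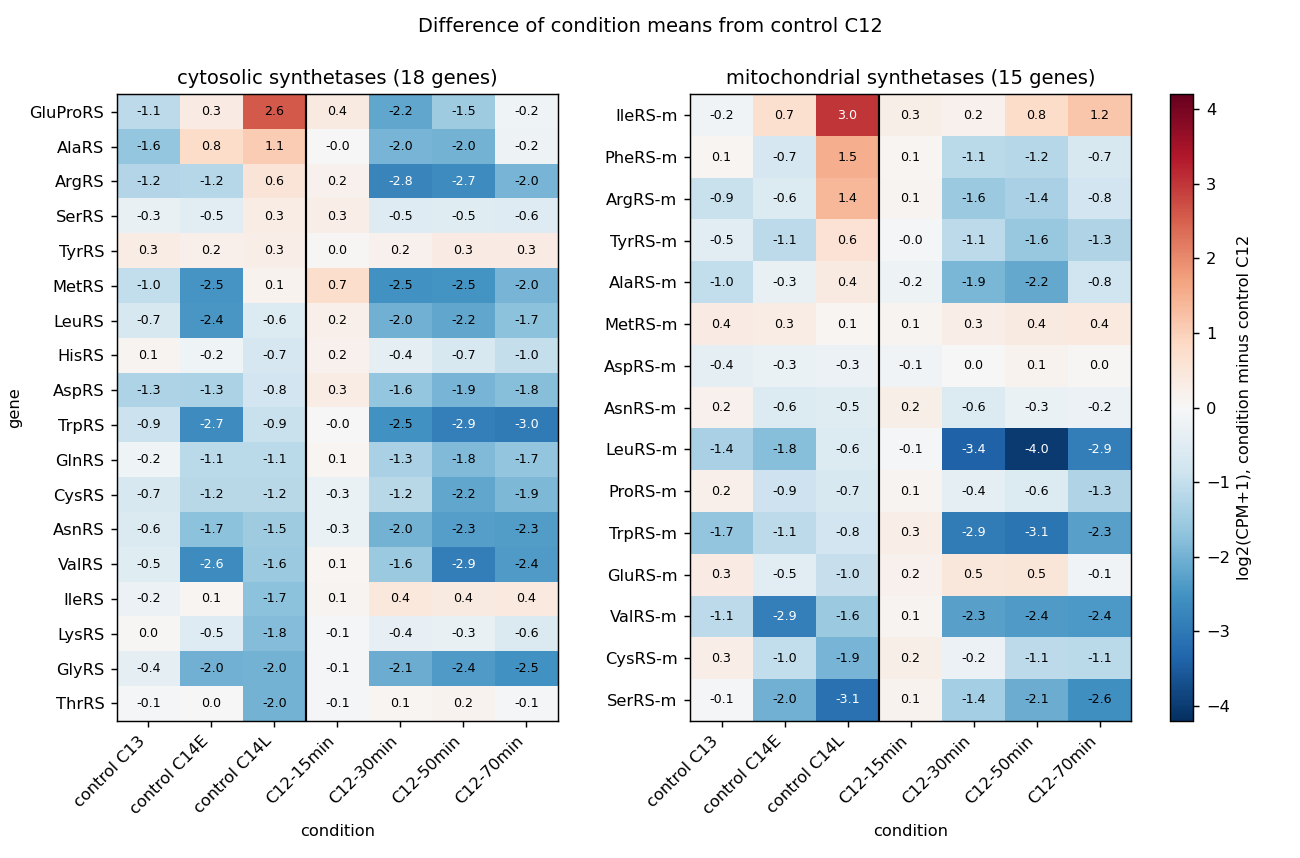
Difference of each condition mean from the control C12 mean, in log2(CPM+1), for the 18 cytosolic (left) and 15 mitochondrial (right) synthetase genes, ordered by their difference in control C14L (line between controls and arrested conditions). The control C14L column runs from 2.57 (GluProRS) to -1.98 (ThrRS) and from 3.01 (IleRS-m) to -3.14 (SerRS-m), while the C12-15min column stays within 0.74 of 0.

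Calls between control C14L and control C12 came from limma, a linear model for many genes, fitted to the log2(CPM+1) values of all 12 solved embryos with Benjamini-Hochberg adjustment over the genes tested and a threshold of 0.05. Of 31 synthetase genes tested, 2 rose and 10 fell, 6.45% and 32.3%, beside 29.5% and 25% of 7738 genes. At an unadjusted p below 0.05, 14 of the 31 passed, beside 60% of all genes. Nothing in the labels says whether embryos of a condition shared a mother or a day, so the p-values measure the spread between these embryos. The genes that rose were IleRS-m and PheRS-m. Those that fell were SerRS-m, CysRS-m, GluRS-m, ValRS, IleRS, HisRS, GlyRS, GlnRS, CysRS and AsnRS. By the embryos alone, 7 genes were higher in both control C14L embryos than in both control C12 embryos and 17 were lower, beside 46.6% and 38.8% of all genes. Some of the limma calls were lost when 1 embryo was left out, with no share over all genes beside those fits. IleRS-m, SerRS-m, CysRS-m, GluRS-m and IleRS were called whichever embryo was left out.

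IleRS-m, which charges isoleucine in mitochondria, stood at 0.793 CPM (46 reads) and 1.001 CPM (46 reads) in the control C12 embryos and at 15.97 and 12.52 CPM in the control C14L embryos. Both late embryos were far above both early ones, by 15.9-fold in the means, and the gene rose by 2.999 ± 0.38 on the log2 scale (SE, limma adjusted p = 0.00038). Its means in control C13 and control C14E were 0.710 and 2.01 CPM. PheRS-m, the mitochondrial phenylalanine enzyme, had 9.09 and 8.79 CPM in the control C12 embryos and 30.6 and 24.3 CPM in the control C14L embryos, with means of 9.53 and 5.06 CPM in between. The groups did not overlap, and PheRS-m rose by 1.51 ± 0.41 (limma adjusted p = 0.014). Its mean in control C14E lay below that of control C12.

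GluProRS is a single protein that charges both glutamate and proline. Its levels were 8.91 and 27.0 CPM in control C12 and 125 and 97.7 CPM in control C14L, with means of 7.75 and 22.8 CPM in between. All late embryos were above all early ones, yet the difference of 2.74 ± 1.06 fell short of the threshold (limma adjusted p = 0.057). Its SE draws on the spread within all 6 solved conditions. ArgRS-m had 5.59 and 9.58 CPM in cycle 12 and 23.1 and 20.4 CPM late in cycle 14, again without overlap (1.44 ± 0.75, limma adjusted p = 0.14), and 11.8% of its exon length lies under mRpS9 on the other strand. AlaRS was at 27.4 and 44.5 CPM and then at 74.1 and 77.6 CPM, and TyrRS-m at 12.2 and 17.1 CPM and then at 24.7 and 20.8 CPM. Neither passed the limma test in this comparison, although the embryos of the 2 conditions did not overlap for either gene.

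SerRS-m, the mitochondrial serine enzyme, had the lowest difference between control C14L and control C12 of all 33 genes. It had 20.3 and 24.3 CPM in the control C12 embryos, means of 20.8 and 4.78 CPM in control C13 and C14E, and 1.57 and 1.70 CPM in the control C14L embryos. The gene fell by 3.14 on the log2 scale (SE 0.37, limma adjusted p = 0.00026), and the 2 stages did not overlap. CysRS-m went from 12.1 and 12.6 CPM to 1.87 and 3.05 CPM (-1.97 ± 0.27, limma adjusted p = 0.00055) and GluRS-m from 14.6 and 13.9 CPM to 7.13 and 6.36 CPM (-0.98 ± 0.19, limma adjusted p = 0.0033). For both, control C13 held the highest control mean, with 15.1 and 18.4 CPM.

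Cytosolic genes that fell by control C14L included GlyRS, from 69.3 and 101.2 CPM to 19.6 and 22.3 CPM (-1.95 ± 0.45, limma adjusted p = 0.0072). IleRS, an abundant mRNA, was at 353 and 359 CPM in the control C12 embryos and at 105 and 108 CPM in control C14L (-1.73 ± 0.19, limma adjusted p = 0.00057). Its control C13 and control C14E means were 303 and 374 CPM, so the lower level was seen in late cycle 14. The means of ThrRS followed the same order, while LysRS was already lower in control C14E. ThrRS stood at 390, 368 and 390 CPM in control C12, C13 and C14E and at 98.1 CPM in control C14L, and LysRS at 435, 450, 300 and 123 CPM. Reads of single control C12 embryos were not solved for these genes, so neither was tested against control C12. TyrRS, whose gene lies next to GluRS-m on chromosome 3L on the same strand (16417349 to 16419302, beside 16415292 to 16417177), had 162 and 185 CPM in control C12 and 211 and 208 CPM in control C14L (0.28 ± 0.17, limma adjusted p = 0.22).

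In the arrest, C12-15min gave no call. Of 33 genes, 1 (MetRS) had a mean over 1.5-fold above control C12 and 0 were below, beside 2.76% and 0.75% of all 17735 genes and 5.76% and 1.56% of the 8419. Limma called 0 of 30 synthetase genes and 0 of 7735 genes, and 0 of the 30 and 0.491% of all genes had an unadjusted p below 0.05. The embryos overlapped those of control C12 for 27 of the 30 genes. MetRS shows the spread behind the means, with 5.93 and 12.97 CPM in control C12 and 31.3 and 1.63 CPM in C12-15min. GluProRS had 43.5 and 3.85 CPM, ArgRS 46.3 and 3.31 CPM and TrpRS-m 29.2 and 1.53 CPM in the C12-15min embryos. The exceptions, by embryos without overlap, were MetRS-m and GluRS-m (both higher) and AspRS-m (lower), beside 8.74% and 5.46% of all genes.

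From 30 minutes on, most synthetase mRNAs of the arrested embryos lay below control C12. At C12-30min 20 of 33 genes were over 1.5-fold lower and 0 higher, beside 16.1% and 6.99% of all 17735 genes and 33.9% and 14.6% of the 8419. At C12-50min 22 were lower and 1 (IleRS-m) higher, beside 17.2% and 11.5% of all genes and 36.2% and 23.1% of the 8419. At C12-70min 22 were lower and 1 (IleRS-m again) higher, beside 18.6% and 16.8% of all genes and 39.1% and 31.4% of the 8419. All comparisons with cycle 12 share the same control C12 embryos, and arrest and time since mitosis 11 cannot be told apart in them. The cytosolic medians against control C12 were -1.59, -1.95 and -1.69 at the 3 times, and the mitochondrial medians -1.10, -1.21 and -0.84. The genes of at least 10 CPM throughout had medians of 0.12, 0.12 and -0.13.

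Limma called 7 of 31 genes lower and 0 higher at C12-30min (22.6% lower, beside 12% of 7829 genes lower and 0.473% higher). At C12-50min 15 of 31 fell and 0 rose (48.4%, beside 24.2% lower and 6.71% higher of 7806 genes). At C12-70min 12 of 27 fell and 1 rose (44.4% lower, beside 34.8% lower and 21.5% higher of 6689 genes). At an unadjusted p below 0.05, 18, 21 and 16 genes passed at the 3 times, beside 35%, 48.4% and 62.2% of all genes. Both arrested embryos lay below both control C12 embryos for 24 of 31 genes at 30 minutes, 23 of 31 at 50 minutes and 21 of 27 at 70 minutes, beside 38.4%, 40.7% and 47.8% of all genes tested. They lay above for 4, 5 and 2 genes, beside 29.6%, 39.2% and 37.9%. Many of these calls were lost when 1 embryo was left out. No share over all genes stands beside those fits, so the loss is not read as particular to the synthetases. In a fit without both C12-15min embryos, chosen after seeing the data, 17 genes fell at 30 minutes, 19 at 50 and 17 at 70, beside 23.6%, 29.7% and 39% of all genes in that fit.

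AsnRS, CysRS, GlnRS, GlyRS and SerRS-m were the 5 genes called lower at C12-70min whichever embryo was left out. By their names they charge asparagine, cysteine, glutamine and glycine, and for SerRS-m serine in mitochondria. GlyRS stood at 69.3 and 101.2 CPM in control C12, at 17.0 and 21.5 CPM in C12-30min, at 14.2 and 16.8 CPM in C12-50min and at 12.4 and 15.2 CPM in C12-70min. Every arrested embryo from 30 minutes on was below both control C12 embryos, and at 70 minutes the gene fell by 2.52 on the log2 scale (SE 0.46, limma adjusted p = 0.0033). SerRS-m had a mean of 7.76 CPM at 30 minutes, 5.15 and 3.84 CPM at 50 minutes and 3.01 and 2.72 CPM at 70 minutes, against 20.3 and 24.3 CPM in control C12. It fell by 2.59 at 70 minutes (SE 0.38, limma adjusted p = 0.0019). AsnRS was at 27.4 and 36.4 CPM at 70 minutes against 136 and 194 CPM (-2.32 ± 0.49, limma adjusted p = 0.0056), and CysRS at 19.9 and 19.7 CPM against 64.6 and 87.5 CPM (-1.87 ± 0.31, limma adjusted p = 0.0027).

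Among the condition means at C12-70min, TrpRS had the lowest log2 difference of the cytosolic genes (-2.95) and LeuRS-m that of the mitochondrial genes (-2.92). TrpRS, the tryptophan enzyme, was at 28.8 and 54.6 CPM in control C12 and at 5.88 and 6.88, 5.54 and 4.08, and 3.30 and 5.71 CPM at 30, 50 and 70 minutes. At 70 minutes TrpRS fell by 2.92 (SE 0.66, limma adjusted p = 0.0069). The control means of TrpRS in C13, C14E and C14L were 21.8, 5.78 and 21.2 CPM, so the early cycle 14 mean was near the arrested ones. LeuRS-m went from 34.1 and 74.1 CPM to 4.95 and 3.59, then 3.23 and 1.52, then 6.27 and 6.29 CPM in the arrest. It fell by 3.98 at 50 minutes (SE 0.80, limma adjusted p = 0.011) and fell by 2.82 at 70 minutes (SE 0.79, limma adjusted p = 0.016). Its control means were 20.4, 14.8 and 35.8 CPM in C13, C14E and C14L.

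Other genes that fell at 70 minutes were ValRS (20.9 CPM in the mean against 114), ProRS-m (12.2 against 31.0), CysRS-m (5.06 against 12.4), TyrRS-m (5.55 against 14.6) and ValRS-m (0.626 against 7.74). Some genes were lower in the means but missed the threshold at 70 minutes. ArgRS, at 5.25 and 4.36 CPM against 14.3 and 29.0 CPM in control C12, was below without overlap (-1.89 ± 0.91, limma adjusted p = 0.11). The same held for LeuRS (mean 12.2 CPM against 43.0, limma adjusted p = 0.060), AspRS (2.80 against 12.1, limma adjusted p = 0.065), TrpRS-m (1.77 against 12.6, limma adjusted p = 0.076) and MetRS (1.69 against 9.45, limma adjusted p = 0.13). LeuRS and TrpRS-m did pass at 50 minutes (-2.20 ± 0.69 and -3.005 ± 0.96, limma adjusted p = 0.044 and 0.047). For AspRS, 63.9% of the exon length lies under an annotated antisense RNA, asRNA:CR45141, which reached 0.0378 CPM at most.

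**Figure D3:**
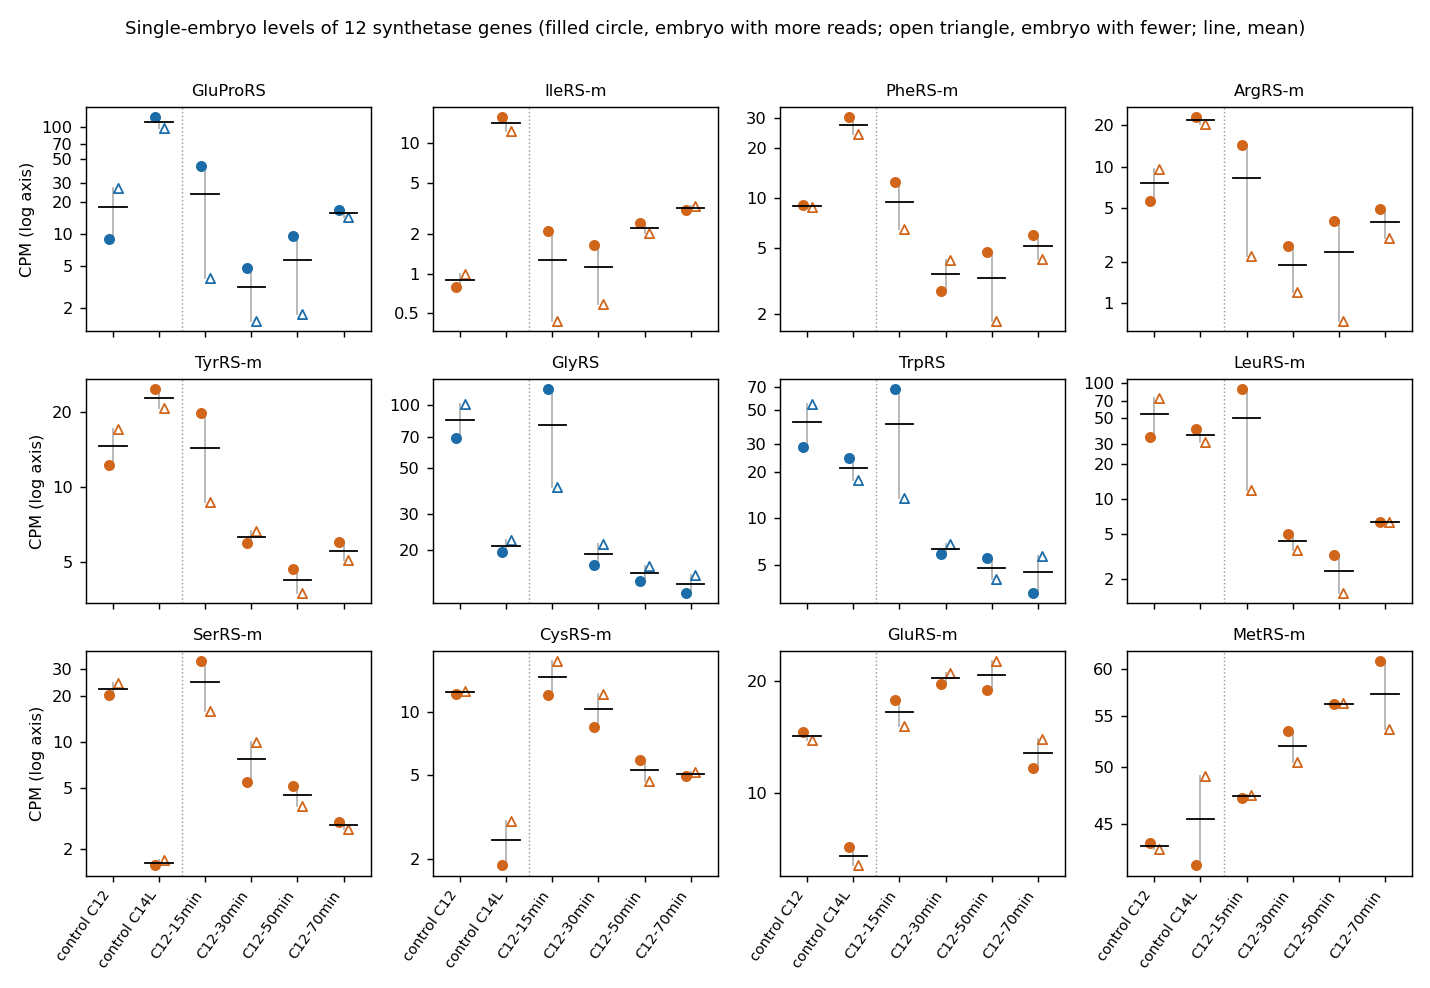
CPM in each solved embryo (log axis) of 12 synthetase genes in control C12 and C14L and in the 4 arrested conditions (filled circles, embryo with more reads; open triangles, embryo with fewer; lines, authors' means; blue, cytosolic; orange, mitochondrial). GluProRS, IleRS-m, PheRS-m, ArgRS-m and TyrRS-m are above control C12 in control C14L, SerRS-m and GlyRS lie low both in control C14L and in C12-70min, and the C12-15min embryos are over 1.5-fold apart for 9 of the 12 genes.

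IleRS-m was the 1 gene called higher in the arrest. It had 1.67 and 0.590 CPM at 30 minutes, 2.44 and 2.06 CPM at 50 minutes, and 3.11 and 3.32 CPM (164 and 150 reads) at 70 minutes. The C12-70min embryos were above both control C12 embryos by 3.58-fold in the means, and the gene rose by 1.153 ± 0.39 (limma adjusted p = 0.034), a call that was lost without any 1 of the 4 embryos compared. Among mitochondrial genes, MetRS-m, which charges methionine including that of the initiator tRNA, was also higher in both C12-70min embryos than in both control C12 embryos, at 60.9 and 53.7 CPM against 43.4 and 42.9 CPM. Its difference of 0.40 ± 0.20 did not pass (limma adjusted p = 0.12).

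Of the 6 synthetase genes with the most reads in the arrested embryos from 30 minutes on, 4 (IleRS, ThrRS, TyrRS and AspRS-m) stayed within 1.5-fold of control C12 in every arrested mean, and LysRS and HisRS did not. IleRS had 451 and 510 CPM at 30 minutes and 481 and 455 CPM at 50 minutes, all above the 353 and 359 CPM of control C12, with a mean of 476 CPM at 70 minutes (0.43 ± 0.19 and 0.39 ± 0.19 at 30 and 50 minutes, limma adjusted p = 0.16 and 0.14). ThrRS had means of 366, 412, 435 and 365 CPM over the 4 arrested times, beside 390 CPM in control C12. LysRS had 417, 339, 351 and 283 CPM, beside 435 CPM, and so was over 1.5-fold lower at 70 minutes. AspRS-m, the aspartate enzyme of mitochondria and by far the most abundant -m mRNA, had 302, 340, 371 and 344 CPM, beside 334 CPM. TyrRS had 179, 196, 221 and 220 CPM, beside 173 CPM, and HisRS 199, 132, 109 and 86.0 CPM, beside 175 CPM, the lowest ratio of the 6. At 70 minutes these were the 6 genes whose single embryos were not solved, so the 27 genes tested there leave out those with the most reads.

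A few genes held a larger share of the reads in the arrest than in control C12, as they also did in control C14E. IleRS, ThrRS and LysRS made up 68.7%, 71.7% and 68.3% of the summed cytosolic CPM at 30, 50 and 70 minutes, beside 51.4%, 54.9% and 61.7% in the C12, C13 and C14E controls. In control C14L the leading cytosolic genes were TyrRS, LysRS and GluProRS with 37.9%. AspRS-m alone made up 70.7%, 73.8% and 72.3% of the summed mitochondrial CPM at the 3 times, beside 56.8% in control C12, 65.1% in control C14E and 54.5% in control C14L. Summed over the class, the cytosolic genes held 2298, 1171 and 1646 CPM in control C12, control C14L and C12-70min, and the mitochondrial genes 589, 514 and 477 CPM. The number of cytosolic genes at 10 CPM or more was 17 in control C12, 13 in control C14E, 17 in control C14L, 11 in C12-30min and 14 in C12-70min.

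The arrest and the late control were then set against each other. These conditions are not matched in time: by the study's own description the C12-70min embryos are much less advanced in development than control C14L, so arrest and age cannot be told apart in this comparison. Over condition means, 20 of 33 genes were over 1.5-fold lower in C12-70min and 5 higher, beside 21.4% and 12% of all genes and 44.2% and 24.2% of the 8419. The genes higher in C12-70min were IleRS (476 against 106 CPM), ThrRS (365 against 98.1 CPM), LysRS (283 against 123 CPM), GluRS-m and CysRS-m. By limma 6 of 27 genes were lower than in control C14L and 2 were higher (22.2% and 7.41%, beside 34.7% and 11% of 6755 genes), and 11 passed at an unadjusted p below 0.05, beside 55.4%. All 13 cytosolic genes with solved embryos were lower in both C12-70min embryos than in both control C14L embryos, as were 8 of 14 mitochondrial genes, together 21 of 27 genes beside 58.8% of all genes. The genes higher in both were 5 of 27, beside 25.4%. These counts leave out IleRS, ThrRS, LysRS, TyrRS, HisRS and AspRS-m, whose embryos were not solved at C12-70min. In the means IleRS, ThrRS and LysRS were higher in C12-70min, and TyrRS, HisRS and AspRS-m were within 1.5-fold of control C14L. Most of the limma calls were lost when 1 of the 4 embryos was left out, with no share over all genes beside those fits. Without both C12-15min embryos the fit gave 16 lower and 2 higher, beside 41.5% and 12.3% of all genes in that fit.

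PheRS-m and TyrRS-m were the genes called lower in C12-70min whichever embryo was left out. PheRS-m had 6.02 and 4.32 CPM in C12-70min against 30.6 and 24.3 CPM in control C14L (-2.21 ± 0.41, limma adjusted p = 0.0044). TyrRS-m had 6.003 and 5.09 CPM against 24.7 and 20.8 CPM (-1.86 ± 0.36, limma adjusted p = 0.0052). For PheRS-m, TyrRS-m and ArgRS-m, control C14L was above both control C12 embryos and C12-70min below both, which is 3 of 27 genes beside 9.06% of all 6669 genes solved in the 3 conditions. TyrRS-m and ArgRS-m had missed the limma threshold between control C14L and control C12 (limma adjusted p = 0.17 and 0.14). In C12-30min and C12-50min, PheRS-m was at 2.75 and 4.23 and at 4.76 and 1.82 CPM, and ArgRS-m at 2.598 and 1.204 and at 3.97 and 0.738 CPM.

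GluProRS differed most between the means of the 2 conditions, with 16.7 and 14.5 CPM in C12-70min against 125 and 97.7 CPM in control C14L, 7.12-fold apart. The difference of -2.75 ± 1.04 missed the threshold (limma adjusted p = 0.059). Over the arrest the embryos of GluProRS stood at 4.83 and 1.52 CPM at 30 minutes and at 9.54 and 1.78 CPM at 50 minutes, and both embryos at 70 minutes were above these. ArgRS was 6.72-fold lower in the C12-70min mean than in control C14L, at 5.25 and 4.36 CPM against 36.9 and 27.7 CPM (-2.51 ± 0.91, limma adjusted p = 0.051). IleRS-m, although higher than in control C12, was at 3.11 and 3.32 CPM against 15.97 and 12.52 CPM (-1.85 ± 0.39, limma adjusted p = 0.0073). AlaRS, at 29.1 and 32.8 CPM against 74.1 and 77.6 CPM, and AlaRS-m, at 8.01 and 10.9 CPM against 22.5 and 23.8 CPM, were lower without overlap (limma adjusted p = 0.099 and 0.15).

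**Figure D4:**
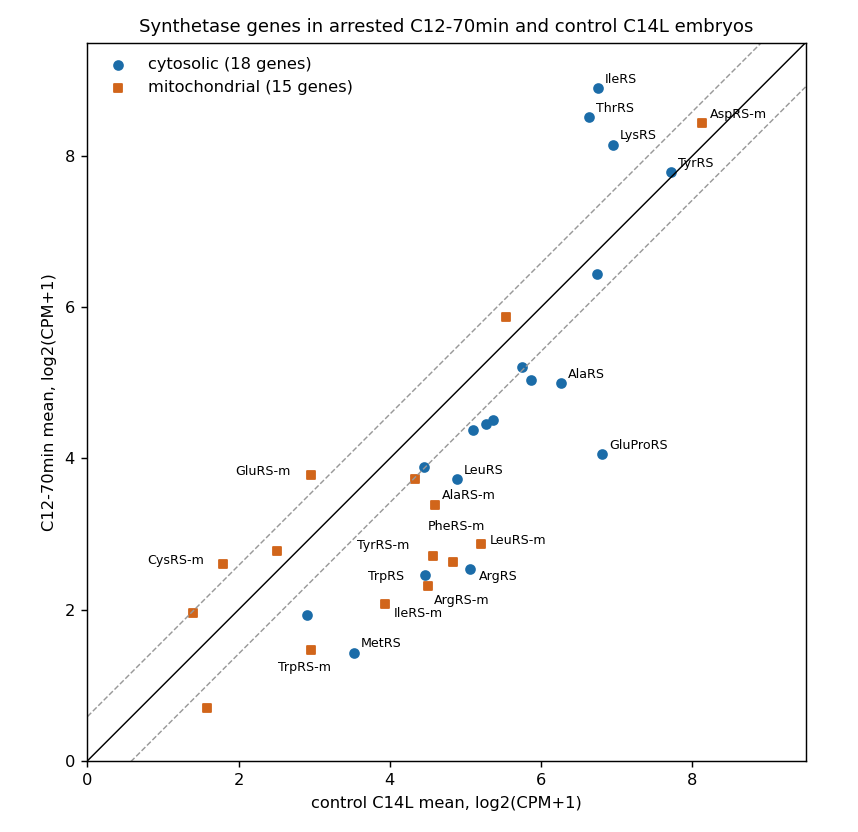
Condition mean of each synthetase gene in C12-70min (y axis) against control C14L (x axis), in log2(CPM+1) (circles, cytosolic; squares, mitochondrial; solid line, equal; dashed lines, 1.5-fold). IleRS, ThrRS and LysRS lie above the lines at the abundant end with GluRS-m and CysRS-m at the low end, and 20 of 33 genes lie below, GluProRS farthest at -2.76.

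Cytosolic and mitochondrial genes were compared by class and by pair. The cytosolic minus the mitochondrial median of the differences from control C12 was -0.41, -0.44 and -0.36 in control C13, C14E and C14L, and -0.49, -0.74 and -0.85 at 30, 50 and 70 minutes of arrest. In C12-70min against control C14L the class medians were -0.83 and -0.87, 0.05 apart, but with a pseudocount of 0.1 the cytosolic median was above the mitochondrial one by 0.43. Genes are not replicates, so these medians have no test. Among the 12 pairs of the same name, the genes shared their side of the 1.5-fold line in 5 pairs in control C14L and in 5 pairs in C12-70min. These pairs leave out GluProRS, which differed from control C12 by 2.57 in control C14L, beside -0.98 for GluRS-m and -0.66 for ProRS-m. Isoleucine gave the widest contrast. In control C14L IleRS was 3.34-fold below and IleRS-m 15.9-fold above control C12, and at C12-70min neither gene lay below it in the means. For serine, SerRS-m fell by control C14L while the embryos of SerRS overlapped. SerRS was at 28.5 and 36.6 CPM in control C12 and 45.9 and 34.7 CPM in control C14L (0.30 ± 0.42, limma adjusted p = 0.58). For methionine, MetRS ranged from 0.810 CPM in C12-30min to 16.5 CPM in C12-15min in the means, and MetRS-m from 43.2 to 57.3 CPM. AsnRS-m stayed between 4.49 and 8.57 CPM in the 8 means, while AsnRS stood at 165 CPM in control C12 and at 31.9 CPM in C12-70min.

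Partner genes of the synthetases, from lists chosen with earlier results in view, were read beside them. Both subunits of the cytosolic phenylalanine enzyme were lower in C12-70min than in control C14L. alpha-PheRS fell by 2.39 from control C12 to C12-70min (SE 0.55, limma adjusted p = 0.0074), and beta-PheRS rose by 1.88 ± 0.65 from control C12 to control C14L (limma adjusted p = 0.038). AIMP1, AIMP2 and AIMP3 encode the scaffold proteins that hold a complex of synthetases together in animals. Of these 5 genes, 0 were higher and 2 lower at C12-70min against control C12, and 4 were lower than in control C14L, the largest difference being that of AIMP1 (-2.82 ± 0.67, limma adjusted p = 0.011). Of all genes tested, 34.8% were lower and 21.5% higher in the former comparison and 34.7% lower in the latter. In C12-15min all 5 were over 1.5-fold higher in embryo 1 than in embryo 2. Between these embryos 48.1% of all genes of at least 10 CPM differed by over 1.5-fold, in either direction.

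GatA, GatB and GatC form the amidotransferase that makes glutaminyl-tRNA in mitochondria from the glutamyl-tRNA that GluRS-m provides, in place of a mitochondrial glutamine synthetase. GatA and GatB fell by control C14L, by 1.18 and 2.39 (SE 0.20 and 0.33, limma adjusted p = 0.0014 and 0.00053), as GluRS-m did. In C12-70min both were above control C14L (0.87 ± 0.22 and 0.95 ± 0.34, limma adjusted p = 0.014 and 0.049), again as GluRS-m was (11.6 and 13.98 CPM against 7.13 and 6.36 CPM, 0.83 ± 0.22, limma adjusted p = 0.017). GatC is listed at 0 in every condition. Slimp, a relative of SerRS-m without charging activity that binds it in flies, had means of 6.80, 26.6 and 5.44 CPM in control C12, control C14L and C12-70min, beside 22.3, 1.64 and 2.87 CPM for SerRS-m itself. It was lower in C12-70min than in control C14L (-2.12 ± 0.69, limma adjusted p = 0.036).

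The 33 genes are spread over the genome, with 6 on 2L, 8 on 2R, 10 on 3L, 6 on 3R and 3 on X (Ensembl 115 annotation of the dm6 assembly). IleRS-m lies on 3L from 16100280 to 16103482, SerRS-m on 3R from 15340667 to 15343218, PheRS-m on 2R from 13968308 to 13969902 and GluProRS on 3R from 23952136 to 23958391. Whether counting used strand is not given in the sources used here, so an overlapping gene on the other strand may affect the count of a synthetase, in a direction not known. Such overlaps covered 14.3% of the exon length of CysRS-m (CG13016), 13.9% of SerRS-m (Nagk), 11.8% of ArgRS-m (mRpS9) and 16.6% of GluProRS (asRNA:CR46092, listed at 0 throughout).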

How the data were processed

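Poly(A) RNA of single embryos was sequenced. The authors trimmed reads with Trim Galore 0.6.0, aligned them to dm6 (BDGP6) with STAR 2.5.3a and assigned reads with a single alignment to genes using featureCounts (Subread 1.6.0). The authors computed CPM with DESeq2 and deposited log2 values, in which 1 is added to the mean CPM of a condition before the log, for 8 conditions and 17735 genes, with 9 decimals. No column holds a single embryo, and 0 value columns were left unused. Whole reads of the embryos in 2-embryo conditions were solved for from those decimals, with totals found from the columns themselves, and kept where 1 pair of whole numbers gave the value. The share of genes at or above 10 CPM solved this way was lowest in C12-70min (64.8%) and elsewhere 89.2% to 93.0%. Values above 2000 CPM were not tried.

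A gene was counted higher or lower by condition means at a fold above 1.5 on the log2(CPM+1) scale. limma 3.58.1 (R 4.3.3, two-sided) was fitted to 12 embryos, for genes with at least 1 CPM in a condition mean and reads solved in both conditions compared, and the procedure was tested on simulated data. Positions, symbols and exon lengths come from Ensembl 115, which need not be the release the authors used, and all 33 symbols matched. Alternatives were another pseudocount, fold threshold, filter, centring, trend or set of embryos. Genes named in full are, by the condition means, the 3 most abundant of each class, the 4 largest differences each way in control C14L and C12-70min against control C12 and between those, and their partners for the same amino acid. A gene of the lists is not reported here. Members and lists were chosen with earlier results of these data known. Python 3.11.15 with numpy 2.4.6, pandas 2.3.3 and matplotlib 3.10.9 was used.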

Additional observations from a re-analysis of the deposited data

Results flagged for a closer look

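The C12-70min and the control C14L embryos changed from control C12 by different amounts for 8 synthetase genes, by the direct limma test of C12-70min against control C14L. Of 27 tested, 22.2% were lower and 7.41% higher, beside 34.7% and 11% of all genes, and PheRS-m and TyrRS-m were the genes called whichever embryo was left out. These 6 were lower in C12-70min: TrpRS by -2.03 (adjusted p = 0.035), LeuRS-m by -2.32 (adjusted p = 0.041), TyrRS-m by -1.86 (adjusted p = 0.0052), IleRS-m by -1.85 (adjusted p = 0.0073), ArgRS-m by -2.23 (adjusted p = 0.039) and PheRS-m by -2.21 (adjusted p = 0.0044), all in log2(CPM+1) by limma. CysRS-m and GluRS-m were higher by 0.83 each (limma adjusted p = 0.044 and 0.017). The 2 embryos of each condition did not overlap for any of the 8 genes. All 8 share their control C14L and C12-70min embryos, and the C12-70min embryos are less advanced in development than control C14L.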

How the results depend on the processing

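With a fold threshold of 2, control C13 had 9 lower genes, control C14E 0 higher, control C14L 11 lower, C12-15min 0 higher and C12-50min 0 higher, and C12-70min against control C14L had 3 higher and 13 lower. The cytosolic minus mitochondrial median of that last comparison was 0.43 with a pseudocount of 0.1 and 0.44 with 0.001, beside 0.05. Limma called 5 genes higher in control C14L from the embryos of the 2 conditions alone and 5 without both C12-15min embryos. At C12-30min it called 0 lower with no filter, 0 with a pseudocount of 0.1, 0 with the embryos of the 2 conditions alone, and 17 without both C12-15min embryos. At C12-50min it called 2 higher and 8 lower with no filter and 1 higher with a trend, and at C12-70min 0 higher with a trend or a pseudocount of 0.1. Against control C14L it called 3 lower with no filter, 17 with the 2 conditions alone and 16 without both C12-15min embryos, and 1 higher with a trend or a pseudocount of 0.1. Leaving out 1 embryo gave 1 to 2 higher and 4 to 7 lower in control C14L, 0 to 5 lower at 30 minutes, 0 to 12 lower at 50 minutes, 0 higher and 6 to 12 lower at 70 minutes, and 0 to 1 higher and 2 to 3 lower against control C14L, where the lone embryo is assumed to vary like the rest. The cause of these moves was not tested. No share over all genes stands beside the counts of this paragraph, so they are not read as results about the synthetases. Of 297 single-gene values under another pseudocount or centring, 276 kept their side of the 1.5-fold line, 15 newly passed it, 6 no longer did and 0 reversed. No paired analysis was possible because the columns carry no replicate numbers and an embryo's number here only names it. Having 2 embryos a condition, 6 unsolved abundant genes at C12-70min and levels near 1 CPM limit what can be told.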

Other observations

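Genes that act just before and after charging were read from the same lists. Elp3, which acts in the modification of the wobble uridine of tRNAs, had means of 8.16 and 34.5 CPM in control C12 and control C14L, and was lower in C12-70min than in control C14L (-2.81 ± 0.75, limma adjusted p = 0.017). Gcn2, the kinase that senses uncharged tRNA, fell by 2.97 from control C12 to control C14L (SE 0.28, limma adjusted p = 9.5e-05) and was above control C14L in C12-70min (2.06 ± 0.29, limma adjusted p = 0.0015). Thor, the translational repressor 4E-BP of the fly, rose by 1.16 ± 0.21 by control C14L (limma adjusted p = 0.0025).

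Elongation factors, which bring charged tRNA to the ribosome or move the ribosome along, differed by compartment in the means. The mitochondrial factors mEFTu1, mEFTs and mEFG1 fell at C12-70min, by 1.74, 2.59 and 1.99 (SE 0.36, 0.65 and 0.56, limma adjusted p = 0.0049, 0.010 and 0.017). The cytosolic eEF1alpha1, at 13841 CPM in control C12, was at 19580 CPM in C12-70min, and eEF2 went from 5850 to 10052 CPM, with no embryo values solved. Of 92 cytosolic ribosomal protein genes, 75 had C12-70min means over 1.5-fold above control C12 and 0 below, and of 73 mitochondrial ones, 4 were above and 23 below, beside 31.4% and 39.1% of genes with at least 1 CPM in a condition.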
